A study of Mus musculus with 16 samples.

Results

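The cells of the liver other than hepatocytes were followed through 35 marker genes, taken from a list of known markers: 11 of Kupffer cells, 8 of the sinusoidal endothelium, 7 of stellate cells, 4 of cholangiocytes and 5 of lymphocytes. By the array annotation used here, 33 of the 35 had a probe, out of 19057 genes with a probe in all. A probe had to exceed 3 times the background of an array to count as detected there. Genes detected on 3 or more of the 16 arrays were tested, which left 24 of the 35 markers among 9906 genes.

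RNA of whole liver was measured on bead arrays in mice 2 months old, with 1 array per sample. The groups were 3 male and 5 female livers of genotype hs-RXRa-Dex4-/- (KO), set against 3 male and 5 female livers labelled wild-type (WT). In the KO mice a part of Rxra, the gene of the retinoid X receptor alpha, is deleted in hepatocytes. The cells described here are therefore taken to keep the intact gene. Whether each of these cell types keeps it was not tested. The strain, the promoter of the recombinase and whether any sample was pooled are not given in the sources used here, and the p-values measure the spread between these samples.

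Kupffer cells are the resident macrophages of the liver. They sit in the sinusoids and clear particles, dying cells and old red cells from the portal blood. The sinusoidal endothelium is a fenestrated lining that takes up waste macromolecules through scavenger receptors. Stellate cells lie beneath it, store retinoids and make matrix proteins, and cholangiocytes line the bile ducts. The retinoid X receptor is the partner that many other nuclear receptors need to bind DNA, and it is present in hepatocytes and in these other cells. In RNA of whole tissue, fewer cells of a type and less RNA of the gene per cell cannot be told apart.

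The arrays were alike in overall level, since the deposited intensities had been normalized to a common distribution. The detection threshold was an intensity of 20.9 to 21.0, and 8725 to 8984 genes were detected per array. Xist, the RNA of the inactive X chromosome, passed detection in the 10 female livers and in no male liver. The 12 hepatocyte genes examined, among them Apoa1 and Ttr, were all tested. The Rxra probe read 62.1, 109 and 84.4 in male KO livers, against 78.4, 47.7 and 65.5 in male WT livers, and 88.6, 100.5, 74.8, 54.2 and 81.7 in female KO livers, against 59.7, 64.4, 52.6, 105.7 and 66.2 in female WT livers. The groups overlapped (log2 difference 0.33, adjusted p = 0.547 in males, and 0.17, adjusted p = 0.817 in females, limma). Where this probe lies relative to the deleted part is not known here, so it does not check the genotype.

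How far each cell type was covered differed. Of the Kupffer cell markers 9 of 11 were tested, and each of these was detected on all 16 arrays. Cd5l, a secreted macrophage protein, had a probe that stayed at or below an intensity of 0.744 on every array, and Cd68, a lysosomal glycoprotein of macrophages, had no probe. Of the endothelial markers 7 of 8 were tested, all detected on 16 arrays. Kdr, a receptor of vascular endothelial growth factor, was detected on no array. Of the stellate cell markers 5 of 7 were tested. The type I collagen genes Col1a1 and Col1a2 were detected on 2 arrays and 1 array. Of the cholangiocyte markers only Sox9, a transcription factor of duct cells, was tested: Krt19 and Epcam, which mark duct epithelium, were detected on no array and Krt7 on 1. Of the lymphocyte markers the B cell receptor chain Cd79b was detected on 13 arrays and the T cell receptor chain Cd3e on 8, while Cd3g and Nkg7, a granule protein of cytotoxic cells, were each detected on 2 and Cd79a had no probe. Most values therefore came from 3 cell types, and the duct and lymphocyte results rest on 1 and 2 genes.

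**Figure D1:**
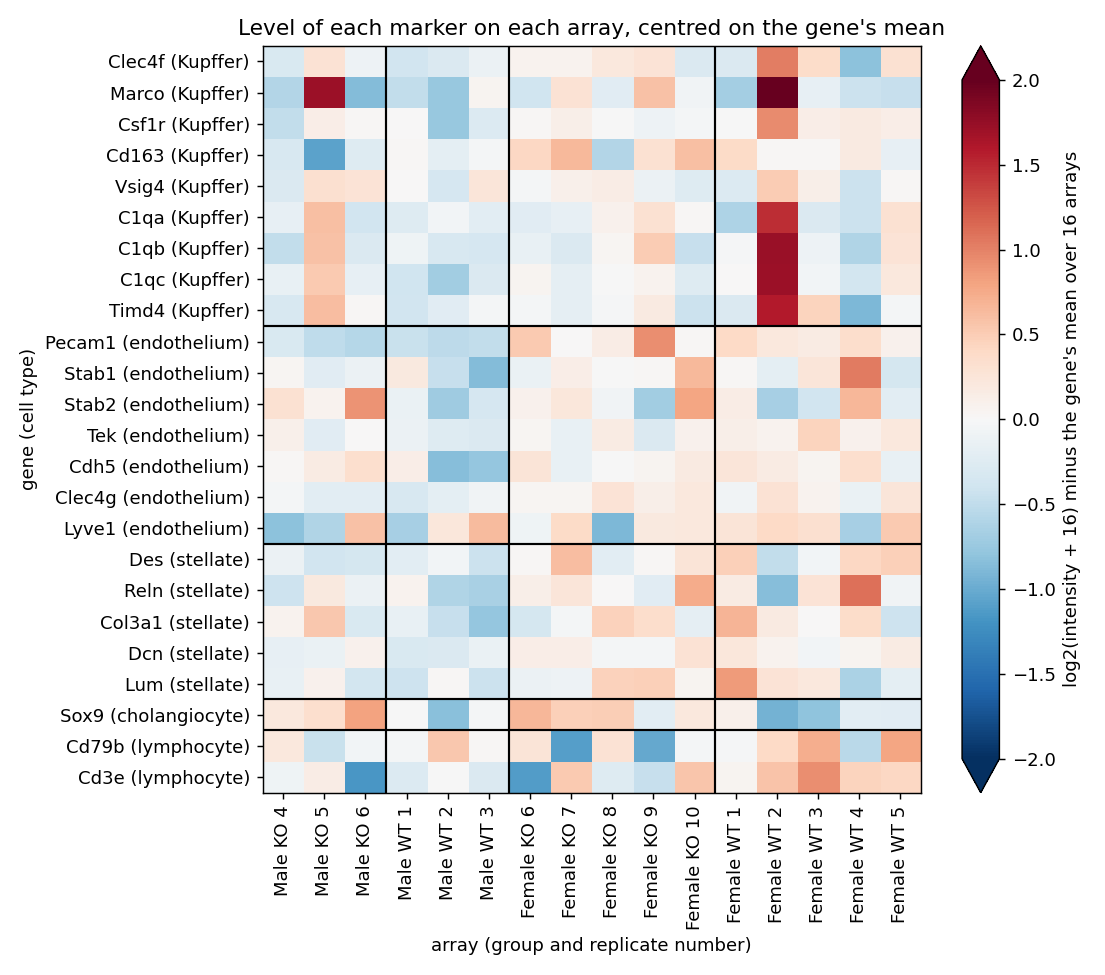
Level of the 24 tested markers (rows, by cell type) on each of the 16 arrays (columns, by group), as log2(intensity + 16) minus the gene's mean over all arrays. The mean over the 9 Kupffer cell rows is highest in Female WT 2 (1.28) and next in Male KO 5 (0.41), and the means over the endothelial and stellate cell rows are below 0 in the 3 male WT arrays. Some arrays of other groups are also below 0 for these lists, such as Male KO 4 (-0.10 and -0.15).

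None of the 24 markers passed in KO against WT livers of either sex (limma, Benjamini-Hochberg adjusted p under 0.05 over all 9906 genes). At an unadjusted p under 0.05 there were 3 of 24 in males (12.5%, beside 14.3% of all genes) and 1 of 24 in females (4.17%, beside 12.3%), all higher in KO livers. Over all genes, 0.878% were called higher and 0.626% lower in male KO livers, and 1.29% were called higher and 1.08% lower in female KO livers. These counts did not set the markers apart from other genes. The median log2 difference of the 24 markers was 0.19 in males and -0.06 in females, beside 0.02 and 0.00 over all genes tested. Of 13 further detected probes of 10 markers, 6 had the sign of the probe used in males and 7 in females, and 0 were called.

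**Figure D2:**
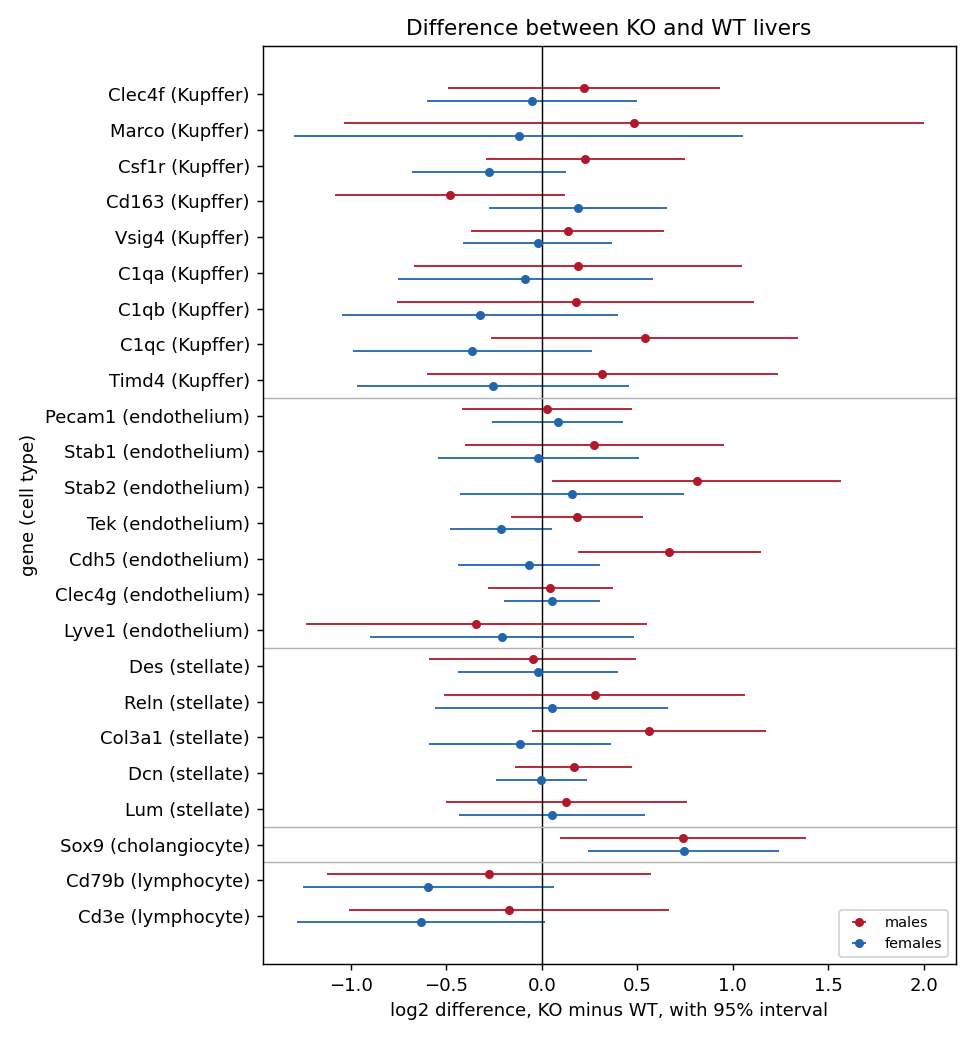
Log2 difference between KO and WT livers (x axis) for each tested marker (y axis) in males and in females, with the 95% interval of the limma fit. The intervals of Stab2, Cdh5 and Sox9 in males and of Sox9 in females lie above 0, and none of these passed after adjustment over all genes.

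No Kupffer cell marker passed between KO and WT livers. Clec4f, a lectin found on Kupffer cells, read 966, 1460 and 1109 in male KO livers, against 912, 981 and 1100 in male WT livers. In females it read 1251, 1256, 1389, 1446 and 979 in KO livers, against 978, 2452, 1544, 668 and 1488 in WT livers. The groups overlapped in both sexes, and the log2 difference was 0.22 (95% interval -0.49 to 0.93) in males and -0.05 (-0.60 to 0.50) in females. Vsig4, a complement receptor that captures opsonized particles, had the narrowest intervals of the 9 (-0.37 to 0.64 in males and -0.41 to 0.37 in females), with 1390, 2132 and 2046 in male KO livers, against 1698, 1337 and 2007 in male WT livers, and with 1418 to 1877 in female KO livers, against 1255 to 2429 in female WT livers.

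By counts, 8 of the 9 Kupffer cell markers were above 0 in male KO against WT livers (median 0.22) and 8 of 9 were below 0 in females (median -0.12). Both counts rested on single arrays. Without Male KO 5 the median in males was 0.02 with 4 of 9 below 0, and without Female WT 2 the median in females was 0.11 with 2 of 9 below 0.

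Cd163, a scavenger receptor for haemoglobin bound to haptoglobin, was the exception in both counts. It read 224, 128 and 237 in male KO livers, against 291, 247 and 279 in male WT livers, so that every KO value lay below every WT value. The log2 difference of -0.48 (SE 0.28) did not pass (adjusted p = 0.460). In females it read 387, 457, 186, 358 and 441 in KO livers, against 379, 289, 292, 324 and 253 in WT livers, and the groups overlapped (log2 difference 0.19, adjusted p = 0.827). A second Cd163 probe, detected on 5 arrays, lay at 0.31 in males, opposite in sign, and at 0.22 in females. C1qc, a chain of the complement component C1q that macrophages make, was the 1 Kupffer cell marker with every male KO value above every male WT value, with 676, 1086 and 664 in KO livers, against 561, 455 and 606 in WT livers (log2 difference 0.54, SE 0.38, adjusted p = 0.536). With 3 arrays against 3 such separation was common: 11.9% of all genes were separated upward and 11.3% downward, and among the 24 markers 3 were separated upward and 1 downward. In females, with 5 arrays against 5, none of the 24 was separated in either direction, beside 2.14% of all genes upward and 1.75% downward.

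Among the endothelial markers 2 stood out in males. Stab2, a scavenger receptor that clears hyaluronan, read 456, 385 and 692 in male KO livers, against 333, 218 and 287 in male WT livers. All 3 KO livers were above all 3 WT livers, by 0.81 on the log2 scale (SE 0.36, unadjusted p = 0.0369, adjusted p = 0.312). Cdh5, the cadherin of endothelial junctions, read 105, 117 and 134 in male KO livers, against 115, 49.9 and 53.8 in male WT livers, where Male WT 1 overlapped the KO livers (log2 difference 0.67, SE 0.23, unadjusted p = 0.00919, adjusted p = 0.172). In females the log2 difference was 0.16 for Stab2 (95% interval -0.43 to 0.74) and -0.07 for Cdh5 (-0.44 to 0.31). The difference between the sexes was tested as an interaction and did not pass for Cdh5 (0.74, SE 0.29, adjusted p = 0.543) or Stab2 (0.66, SE 0.45, adjusted p = 0.669). No marker passed the interaction test, beside 0.0606% of all genes. At an unadjusted p under 0.05 there was 1 of 24, Cdh5 (4.17%, beside 8.60% of all genes).

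The groups overlapped for the other 5 endothelial markers in both sexes. The largest of their differences was that of Lyve1, a hyaluronan receptor, in males (-0.34, 95% interval -1.24 to 0.55) and that of Tek, the receptor of the angiopoietins, in females (-0.22, -0.48 to 0.05). Clec4g, a lectin of sinusoidal endothelium, had the narrowest intervals of the 7, at 0.04 (-0.28 to 0.37) in males and 0.05 (-0.20 to 0.31) in females. For the whole list the median was 0.19 in males, with 6 of 7 above 0, and -0.02 in females, with 3 of 7 above 0. Hepatocyte genes lay the same way in males, with a median of 0.12 and 10 of 12 above 0, and Male WT 2 and 3 were the lowest of the 16 arrays for the mean of that list (-0.38 and -0.17). The part of this in the male differences was not tested.

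The stellate cell markers also showed no call. Dcn, a small proteoglycan of the matrix, read 6272, 6405 and 7418 in male KO livers, against 5698, 5751 and 6416 in male WT livers. In females it read 7648, 7648, 6825, 6796 and 8581 in KO livers, against 8170, 7378, 6740, 7318 and 7863 in WT livers. The groups overlapped in both sexes, and the female difference was -0.00 with a 95% interval of -0.24 to 0.24. Col3a1, a fibrillar collagen gene, had the largest difference of the 5 in males (569, 794 and 433 in KO livers, against 486, 388 and 310.2 in WT livers, log2 difference 0.56, adjusted p = 0.393) and lay at -0.12 in females. Des, an intermediate filament gene, Reln, a secreted glycoprotein that stellate cells make, and Lum, another matrix proteoglycan, lay between -0.05 and 0.28 in males and between -0.02 and 0.05 in females. The list's median was 0.17 in males with 1 of 5 below 0, and -0.05 with 3 of 5 below 0 where the detected probes of each gene were averaged; in females it was -0.00 with 3 of 5 below 0. All 5 intervals in females lay within 1 log2 unit of 0, as did all 7 of the endothelium and 7 of the 9 of the Kupffer cells.

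Sox9 gave the same difference in both sexes. It read 210, 231 and 327 in male KO livers, against 179, 94.1 and 175 in male WT livers. In females it read 295, 256, 259, 153 and 212 in KO livers, against 195, 85.5, 96.0, 152.5 and 151 in WT livers. All male KO livers were above all male WT livers, and in females 4 of the 5 KO livers were above all 5 WT livers, with Female KO 9 among the WT values. The log2 difference was 0.74 in males (SE 0.30, unadjusted p = 0.0270, adjusted p = 0.272) and 0.74 in females (SE 0.24, unadjusted p = 0.00606, adjusted p = 0.138), so that neither passed. A second Sox9 probe, detected on 11 arrays, lay at 0.70 in males and 0.58 in females. Sox9 is not particular to duct cells, and no other marker of the list was tested. Of the 15 further cholangiocyte genes examined 7 were tested and none passed in any comparison. Their median difference was 0.14 in males, with 2 lower at an unadjusted p under 0.05 (28.6%, beside 14.3% of all genes), and 0.17 in females, with 1 higher (14.3%, beside 12.3%). Between male and female KO livers 3 were lower and 1 higher at that level (57.1%, beside 14.0%). In WT livers there were 0, beside 17.4%, and in the interaction of sex and genotype 2 (28.6%, beside 8.60%).

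The lymphocyte markers were near the detection limit. Cd79b was detected on 3 of 5 female KO arrays and 4 of 5 female WT arrays, with 8.58 to 48.4 in KO livers, against 20.0 to 75.0 in WT livers (log2 difference -0.59, adjusted p = 0.486). Cd3e was detected on 2 of 5 female KO arrays and on all 5 female WT arrays, with 0.451 to 36.5 in KO livers, against 21.2 to 52.3 in WT livers (log2 difference -0.63, adjusted p = 0.426). In males it was detected on 1 KO array and on no WT array, and no fold is given between them. A second Cd3e probe, detected on 4 arrays, lay at 0.26 in KO against WT females, opposite in sign.

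**Figure D3:**
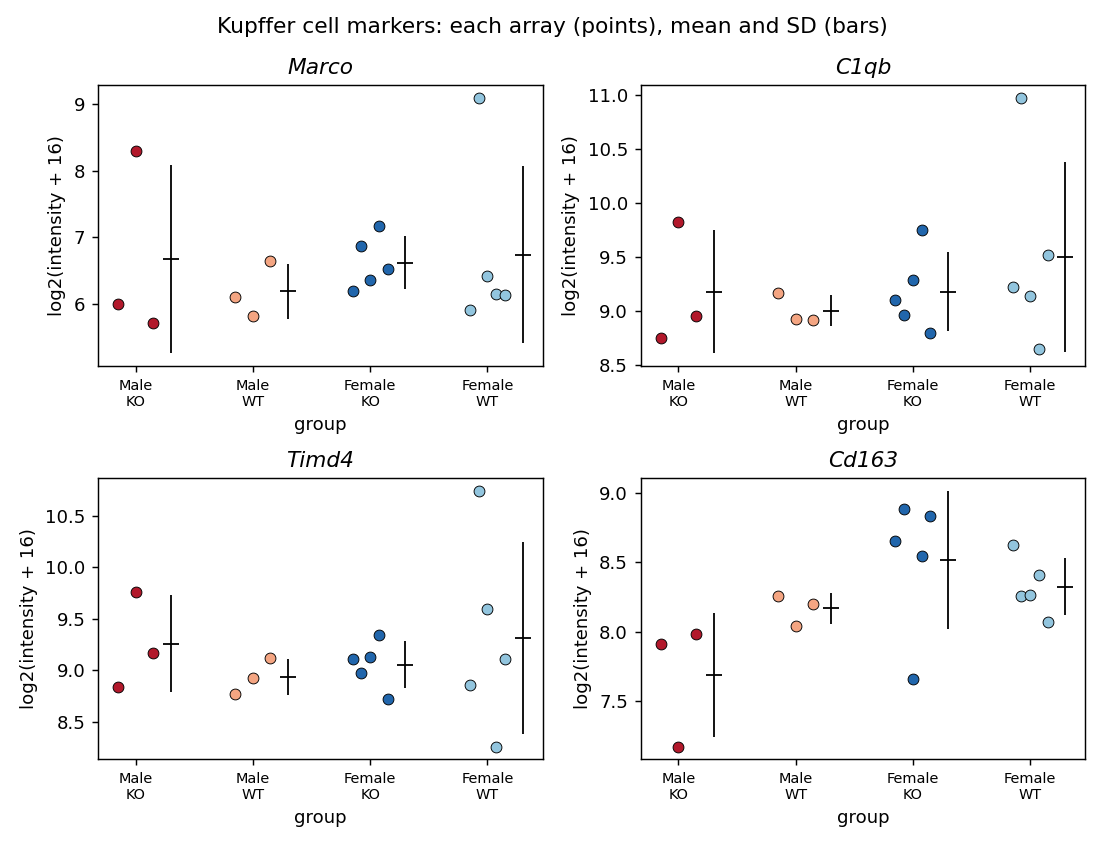
Level of the Kupffer cell markers Marco, C1qb, Timd4 and Cd163 as log2(intensity + 16) on each array (points) by group, with the group's mean and SD beside them (n = 3, 3, 5 and 5). Female WT 2 and Male KO 5 are the highest of their groups for the first 3 genes and not for Cd163.

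Within the groups, 2 livers were high in most Kupffer cell markers. Marco, a scavenger receptor that macrophages use to bind bacteria, read 44.0, 531, 69.9, 55.1 and 53.9 in the 5 female WT livers and 48.1, 297 and 36.5 in the 3 male KO livers. The other 2 groups held no such value, with 57.1 to 127.7 in female KO livers and 40.6 to 83.7 in male WT livers. The high values belonged to Female WT 2, at 7.69 times the mean of the other 4 female WT livers, and to Male KO 5, at 5.40 times that of the other 2 male KO livers, both on the log2(intensity + 16) scale that is used for all such ratios here.

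The same arrays were high for most of the list. The 3 chains of C1q, the protein that starts the classical complement pathway, were 3.33, 3.59 and 3.40 times the other female WT livers for C1qa, C1qb and C1qc in Female WT 2. C1qb read 581, 1999, 549, 386 and 719 in the 5 female WT livers, and 415, 892 and 479 in the 3 male KO livers. Timd4, a receptor for phosphatidylserine on dying cells that marks resident macrophages, read 447, 1697, 756, 290 and 537 in female WT livers and 441, 854 and 560 in male KO livers. In each case the second array, Female WT 2 or Male KO 5, was the highest of its group.

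Female WT 2 was the highest of its 5 livers for 8 of the 9 Kupffer cell markers, beside 20.5% of all genes tested, and Male KO 5 was the highest of its 3 for 8 of 9, beside 33.1% of all genes. The exception was Cd163 in both: it stood at 0.940 times the other livers in Female WT 2, and at 0.584 times, the lowest of the 3, in Male KO 5. Clec4f and Csf1r, the receptor of the macrophage growth factor, stood at 2.20 and 1.78 times the others in Female WT 2. Female WT 4 was the lowest of its group for 5 of the 9, beside 29.2% of all genes, with Timd4 at 0.402 and Clec4f at 0.442 times the others. These arrays were picked out after their values were seen, and no test was made of them.

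The endothelial and stellate cell markers of the same livers were nearer to their groups. In Female WT 2 the median log2 excess over the other female WT livers was 1.74 for the Kupffer cell markers, -0.04 for the endothelial and -0.02 for the stellate cell markers. In Male KO 5 it was 0.68, -0.19 and 0.34. Female WT 4 was high for Stab1, a scavenger receptor related to Stab2, at 2.14 times the others, for Stab2 at 1.92 times and for Reln at 2.34 times, while Lyve1 stood at 0.488 times. Of 9 neutrophil genes 3 were tested, and their mean centred log2 level was -0.41 to 0.55 in male KO livers, -0.32 to 0.47 in male WT livers, -0.66 to -0.01 in female KO livers and -1.28 to 1.08 in female WT livers. Female WT 2 was at the top and Female WT 4 at the bottom of that last range, and over all 16 arrays Female WT 2 also ranked first for the 4 dendritic cell genes tested (0.98) and the 5 further T and NK cell genes (0.77). Male KO 5 ranked second for the dendritic cell genes (0.49). The high levels were thus not confined to Kupffer cell markers, and the part of these other cells in the result was not tested. Over 18 further macrophage genes examined, Female WT 2 was the highest of its group for 12 and Male KO 5 for 14.

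The promoters of the genes that were high together are shown for 4 of them, with that of Cd163, which was not high with them, for contrast. The sequences are those of RefSeq on GRCm38.p6, from 250 bases before the start of the gene to 50 after it. Of the 11 Kupffer cell markers 9 were matched, and C1qa and Csf1r were not. The genes shown were picked by hand, and Clec4f and Vsig4, which were also high and matched, are not shown. The windows are chr1:120504975-120505274 on the minus strand, chr4:136886151-136886450 on the minus strand, chr4:136892865-136893164 on the minus strand, chr11:46810549-46810848 on the plus strand and chr6:124304401-124304700 on the plus strand, each written 5′ to 3′ on the gene's strand. Capitals mark AGGTCA, the half-site that nuclear receptors such as the retinoid X receptor bind, and GAGGAA, the core that the macrophage factor PU.1 prefers, or their reverse complements TGACCT and TTCCTC, with no overlap between the motifs here.
Marco: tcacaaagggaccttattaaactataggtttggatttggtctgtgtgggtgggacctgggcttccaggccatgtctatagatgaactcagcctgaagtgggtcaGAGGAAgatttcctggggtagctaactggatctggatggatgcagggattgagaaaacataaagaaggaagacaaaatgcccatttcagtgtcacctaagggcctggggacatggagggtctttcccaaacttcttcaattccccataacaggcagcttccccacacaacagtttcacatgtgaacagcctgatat
C1qb: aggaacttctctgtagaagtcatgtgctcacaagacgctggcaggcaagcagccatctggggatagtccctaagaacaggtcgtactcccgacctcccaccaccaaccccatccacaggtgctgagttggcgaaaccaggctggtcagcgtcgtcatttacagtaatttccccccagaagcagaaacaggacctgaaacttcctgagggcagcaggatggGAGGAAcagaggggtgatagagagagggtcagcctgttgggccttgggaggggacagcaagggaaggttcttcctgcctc
C1qc: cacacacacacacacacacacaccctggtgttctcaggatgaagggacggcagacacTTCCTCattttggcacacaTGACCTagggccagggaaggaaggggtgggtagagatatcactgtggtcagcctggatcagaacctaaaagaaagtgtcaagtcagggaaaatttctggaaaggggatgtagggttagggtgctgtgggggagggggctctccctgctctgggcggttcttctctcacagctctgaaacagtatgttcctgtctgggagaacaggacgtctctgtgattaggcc
Timd4: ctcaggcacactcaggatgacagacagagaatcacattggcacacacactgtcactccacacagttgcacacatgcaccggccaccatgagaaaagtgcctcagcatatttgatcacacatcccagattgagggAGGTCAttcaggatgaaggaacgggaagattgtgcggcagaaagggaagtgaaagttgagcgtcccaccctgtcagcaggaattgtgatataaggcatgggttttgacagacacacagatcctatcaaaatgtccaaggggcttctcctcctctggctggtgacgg
Cd163: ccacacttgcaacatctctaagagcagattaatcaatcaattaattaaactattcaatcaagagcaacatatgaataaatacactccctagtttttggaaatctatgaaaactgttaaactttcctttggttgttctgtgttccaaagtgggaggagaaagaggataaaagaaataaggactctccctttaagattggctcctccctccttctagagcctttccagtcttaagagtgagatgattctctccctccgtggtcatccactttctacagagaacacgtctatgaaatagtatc
GAGGAA was found in Marco, C1qb and C1qc and AGGTCA in C1qc and Timd4, and neither was found in Cd163. Of 32851 promoters of this length, 28.3% held GAGGAA and 16.3% held AGGTCA on either strand, and of the 24 markers with a promoter 10 and 5 did. A match is a description of these letters only. C1qb and C1qc are neighbours on chromosome 4, with starts 6.71 kb apart.

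**Figure D4:**
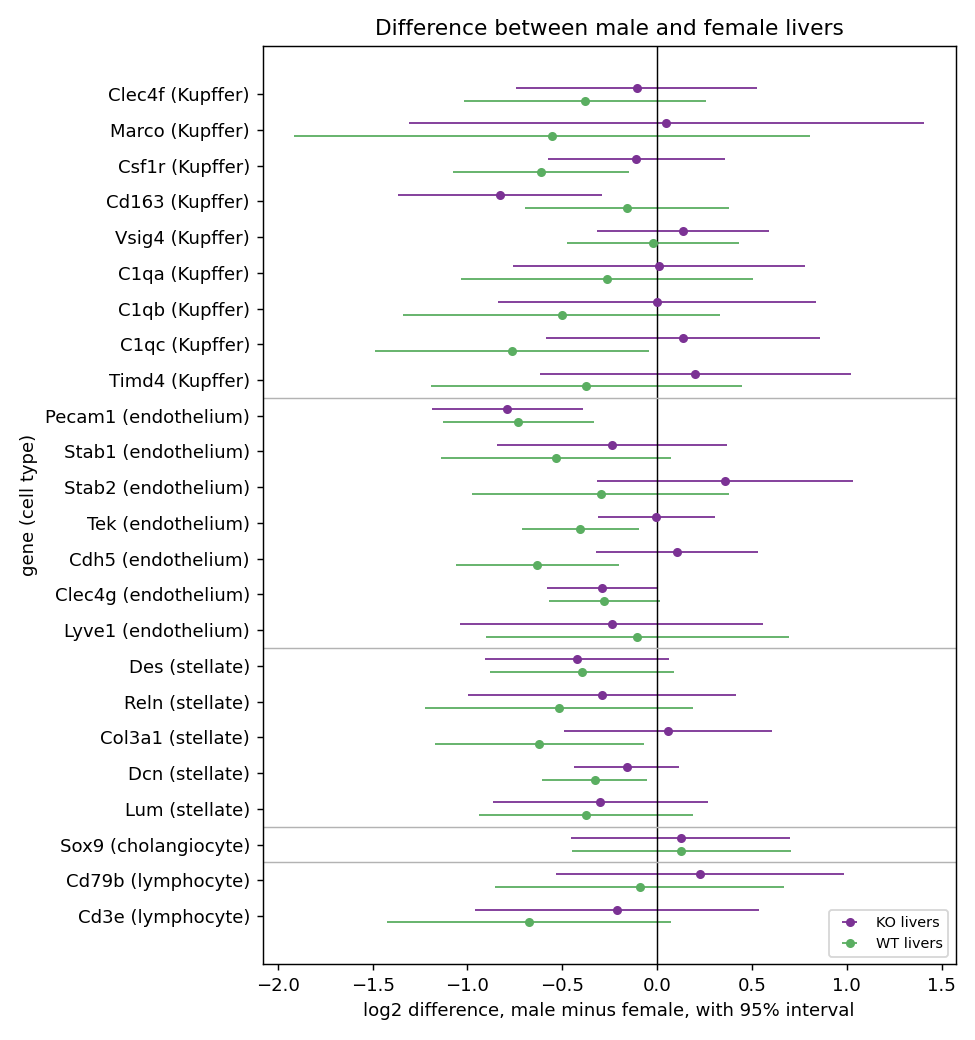
Log2 difference between male and female livers (x axis) for each tested marker (y axis) in KO and in WT livers, with the 95% interval of the limma fit. In WT livers 23 of the 24 points lie below 0, in KO livers 14 of 24, and the intervals of Pecam1 lie below 0 in both.

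Between the sexes, 1 marker passed in each genotype, and it was the same gene. Pecam1, the adhesion molecule of endothelial junctions, read 41.5, 33.9 and 31.9 in male KO livers, against 85.9, 55.8, 63.0, 119 and 56.2 in female KO livers. In WT livers it read 36.1, 33.3 and 34.6 in males, against 78.0, 66.2, 63.8, 75.1 and 59.2 in females. All 6 male livers were below all 10 female livers. The log2 difference was -0.79 in KO livers (SE 0.19, adjusted p = 0.0332) and -0.73 in WT livers (SE 0.19, adjusted p = 0.0397), which is 0.58 and 0.60 times the female level on the log2(intensity + 16) scale. The sex difference was nearly the same in both genotypes, with an interaction of -0.06 (SE 0.27, adjusted p = 0.945).

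The Pecam1 call was close to its limit. The gene had an adjusted p under 0.05 in 20 of 27 settings in KO livers and in 12 of 27 in WT livers, with log2 differences of -0.96 to -0.53 in KO livers and of -0.92 to -0.48 in WT livers. A second probe, detected on 14 arrays, lay at -0.51 in KO livers (adjusted p = 0.230) and at -1.11 in WT livers (adjusted p = 0.00251, in a fit of all probes kept). No Pecam1 intensity exceeded 119. With arrays left out in turn, the call in KO livers was lost without Male KO 4, 5 or 6 or Female KO 6. The call in WT livers was lost without Male WT 1, 2 or 3, Female WT 1, 2, 3 or 4, Male KO 5 or 6, or Female KO 8. The highest adjusted p over all settings was 0.177 in KO livers and 0.155 in WT livers.

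**Figure D5:**
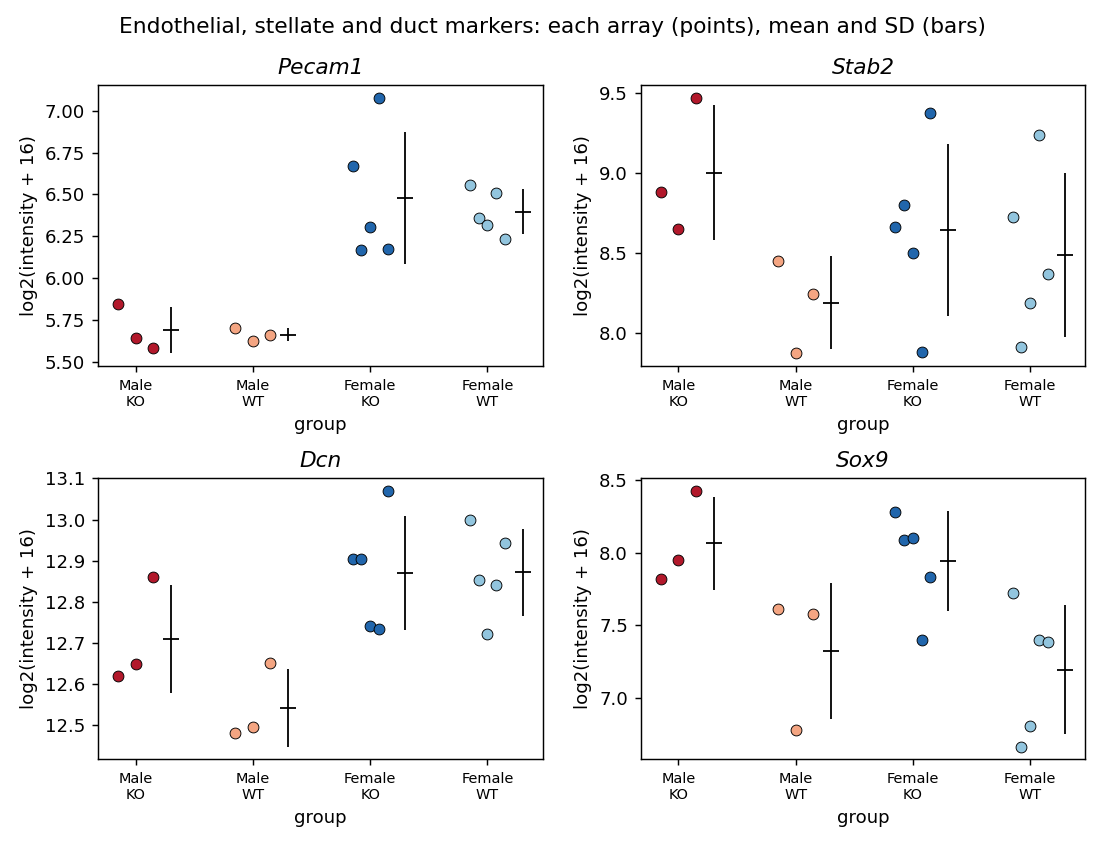
Level of Pecam1, Stab2, Dcn and Sox9 as log2(intensity + 16) on each array (points) by group, with the group's mean and SD beside them (n = 3, 3, 5 and 5). For Pecam1 the male arrays lie below the female arrays in both genotypes, and for Sox9 most KO arrays lie above the WT arrays.

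In WT livers 1 of the 24 markers passed, and most differences lay below 0 without passing. All 9 Kupffer cell, all 7 endothelial and all 5 stellate cell markers had a log2 difference below 0, with medians of -0.38, -0.41 and -0.40, beside -0.02 over all genes, of which 52.9% were below 0. Sox9, at 0.13, was the 1 marker of the 24 above 0. Of the 24, 7 had an unadjusted p under 0.05, all lower in males (29.2%, beside 17.4% of all genes in either direction), and 1 passed after adjustment, beside 2.11% of all genes called lower and 1.61% called higher. Tek read 282, 254 and 250 in male WT livers, against 334, 325, 423, 327 and 358 in female WT livers, with no overlap (log2 difference -0.41, SE 0.15, adjusted p = 0.149). Dcn was separated too, at -0.33 (SE 0.13, adjusted p = 0.192), and Cdh5 lay at -0.63 (SE 0.20, adjusted p = 0.103), with Male WT 1 among the female values.

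Counting Pecam1, Tek, Dcn and Cd3e, 4 of the 24 had all male WT livers below all female WT livers and none had them above, beside 5.89% and 5.57% of all genes. Cd3e was detected on no male WT array and on all 5 female WT arrays, and the female WT level was at least 1.35-fold higher, with the male level taken at the detection threshold (adjusted p = 0.346 in the fit). Averaged over its members, the endothelial list was lower in each of the 3 male WT livers (-0.40 to -0.19 relative to the mean of all arrays) than in each of the 5 female WT livers (0.04 to 0.24). For the stellate cell list the range was -0.48 to -0.20 in male WT livers and -0.16 to 0.48 in female WT livers.

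The Kupffer cell part of this pattern rested on Female WT 2: without it the median was -0.13 with 6 of 9 below 0. The endothelial and stellate cell medians were -0.44 and -0.56 without it, with all 7 and all 5 below 0. Where the detected probes of each gene were averaged, the endothelial median was -0.30 with 6 of 7 below 0. Other probes of the same genes did not all follow. Of 13 further detected probes of 10 markers 8 had the sign of the probe used; those of Stab1 lay at 0.02 and 0.23 where the probe used lay at -0.53, that of Clec4g, detected on 6 arrays, at 0.59 against -0.28, that of Csf1r, detected on 4, at 0.39 against -0.61, and 1 of 3 of Dcn at 0.23. Hepatocyte genes were also lower in male WT livers, with a median of -0.15 and 9 of 12 below 0. The 3 above 0 were Apoa1 (0.13), Ttr (0.09) and Trf (0.02). Only 1 of the 12 was called, the probe of Alb, the gene of serum albumin (-0.97, SE 0.23, adjusted p = 0.0236, limma). It read 564 to 842 in male WT livers, against 1065 to 1668 in female WT livers. The Apoa1 probe read 24671.7 to 35016.5 in these livers. Whether so dim an Alb probe follows albumin RNA was not tested. The mean level of the hepatocyte list was -0.38 to 0.05 in male WT livers, against -0.03 to 0.26 in female WT livers. The part of this in the marker differences was not tested.

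In KO livers no list was below 0 throughout. The median log2 difference between male and female KO livers was 0.01 for the Kupffer cell markers with 4 of 9 below 0, -0.24 for the endothelial markers with 5 of 7 below 0, and -0.29 for the stellate cell markers with 4 of 5 below 0. Without Male KO 5 the Kupffer cell median was -0.27 with 8 of 9 below 0, the endothelial median -0.08 with 4 of 7 below 0, and the stellate cell median -0.38 with 5 of 5 below 0. Whether the list medians differ between the genotypes was not tested. Beside Pecam1, no marker passed, where 1.39% of all genes were called lower and 0.969% higher in male KO livers, and 2 markers had an unadjusted p under 0.05 (8.33%, beside 14.0% of all genes). The other of these was Cd163 (log2 difference -0.83, SE 0.25, adjusted p = 0.118), with the values given above. Its second probe, detected on 5 arrays, lay at -0.18. Clec4g read 6755, 5949 and 5949 in male KO livers, against 7074, 7106, 8361, 7471 and 8009 in female KO livers, with no overlap (log2 difference -0.29, SE 0.14, adjusted p = 0.363). With Pecam1 it made 2 markers separated downward and none upward, beside 6.47% and 6.61% of all genes.

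Further genes of the same cell types gave few calls. Of 18 further macrophage genes tested none passed in any comparison, and at an unadjusted p under 0.05 there were 1 between KO and WT males, 2 between KO and WT females, 2 between male and female KO livers, and 4 between male and female WT livers. These are 5.56%, 11.1%, 11.1% and 22.2% of the 18, beside 14.3%, 12.3%, 14.0% and 17.4% of all genes in the same comparisons. Their median was -0.19 between male and female WT livers, with 16 of 18 below 0. Relative to the mean of all arrays, their mean level was 0.81 in Female WT 2 and -0.38 to 0.11 in the other female WT livers. In male WT livers it was -0.26 to -0.01, within the range of those other female WT livers. Of 20 further endothelial genes 1 passed, lower in male than in female WT livers, beside 2.11% of all genes called lower and 1.61% called higher. Gpr182, a receptor on sinusoidal endothelium, read 312, 237 and 295 in male WT livers, against 495, 425, 442, 683 and 509 in female WT livers (log2 difference -0.81, SE 0.16, adjusted p = 0.00924). In KO livers it lay at -0.42 (adjusted p = 0.241), and no male overlapped a female in either genotype. Between KO and WT males Gpr182 lay at 0.55 with no overlap (adjusted p = 0.166, limma). The median of these 20 genes was -0.21 between male and female WT livers, with 17 below 0, and 0.01 in KO livers, with 9 below 0. At an unadjusted p under 0.05 their share was 15% in KO against WT males and 0% in females, beside 14.3% and 12.3%. It was 20% between male and female WT livers and 15% in KO livers, beside 17.4% and 14.0%. In the interaction of sex and genotype it was 10%, beside 8.60%.

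Of 17 further stellate cell and fibroblast genes 1 passed between female KO and WT livers, beside 1.29% of all genes called higher and 1.08% called lower. In that comparison 9 of the 17 lay below 0 and 8 above. Timp1, an inhibitor of matrix metalloproteinases, read 32.1, 26.6, 37.1, 43.4 and 28.8 in female KO livers, against 11.95, 15.3, -1.53, 6.17 and 5.44 in female WT livers. It was detected on all 5 female KO arrays and on no female WT array, and was at least 1.33-fold higher in female KO livers, with the WT level taken at the detection threshold (adjusted p = 0.0225 in the fit). No male array detected it. Between male and female KO livers 2 more passed, 1 higher and 1 lower in males, beside 0.969% and 1.39% of all genes. Cygb, a globin of stellate cells, read 179, 249 and 169 in male KO livers, against 89.6, 115, 104, 116 and 88.1 in female KO livers (log2 difference 0.85, SE 0.19, adjusted p = 0.0270). Angptl6, a secreted protein of the angiopoietin family, was lower in male KO livers at -0.73 (SE 0.16, adjusted p = 0.0220). At an unadjusted p under 0.05, 5 of the 17 were lower and 1 higher in male KO than in female KO livers (35.3%, beside 14.0% of all genes). There 6 were separated downward and 1 upward, beside 6.47% and 6.61%. Between KO and WT males 2 were higher and 3 lower (29.4%, beside 14.3%). The share was 11.8% in KO against WT females and between male and female WT livers, beside 12.3% and 17.4%. The erythroid gene Alas2, which encodes the first enzyme of haem synthesis in red cell precursors, was higher in male KO than in female KO livers at 1.11 (SE 0.27, adjusted p = 0.0378), and it was also above the female values in all male WT livers (0.83, SE 0.27, adjusted p = 0.109). It was 1 of 3 tested of 6 erythroid genes, and the other 2 lay below 0 between males and females in both genotypes. Of 10 B cell, 15 T and NK cell, 9 neutrophil and 8 dendritic cell genes 2, 5, 3 and 4 were tested, and none passed or had an unadjusted p under 0.05 in any comparison (limma).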

How the data were processed

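Liver RNA of 16 samples was measured on Illumina bead arrays (mouse Ref-6 v2). The deposited table of the series holds 1 intensity per probe and array on a linear scale. The authors state that a core facility analysed and normalized arrays of male and female liver. They state this of arrays submitted under another series, and they name no knockout array there. The submitters' processing notes name lumi without a version. The methods of background correction and normalization are not given in the sources used here. In the deposited values 35.2 to 35.3% lie below 0, and the sorted values above 100 are identical on all arrays, as after background subtraction and quantile normalization. A second table was not used, since its 32 columns of samples match no label.

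Negative values were taken as 0, and log2(intensity + 16) was used throughout. The background was the root mean square of an array's values below 0 (6.97 to 6.99). Of 45281 probes 34885 belonged to 1 gene, and of these 14946 were detected on at least 3 arrays. Each of the 9906 genes was represented by its brightest probe. Groups were compared with limma 3.58.1 (R 4.3.3), by lmFit and eBayes (1 mean per group over 16 arrays, 12 residual and 4.03 prior degrees of freedom), with Benjamini-Hochberg adjustment over all genes at 0.05. The steps were tested on simulated data. Depth has no meaning for arrays; the number of arrays limits the precision.

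Genes named are every marker with a probe, Rxra, Xist, hepatocyte genes and the genes of further lists that passed. The members and lists were chosen with earlier results of these data known. Symbols are those of the platform annotation, and promoters are from RefSeq. Offsets, filters, probe choice, cyclic loess, weights, the variance prior, a replicate block and left-out arrays were tried as alternatives. One alternative, leaving out Male KO 5 and Female WT 2 together, was added after seeing the data.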

Additional observations from a re-analysis of the deposited data

Results flagged for a closer look

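In groups of 5 livers, a highest or lowest array was picked out where its gap to its neighbour exceeded 0.71 of the group's range on the log2(intensity + 16) scale (Dixon's criterion). Of 48 combinations of a tested marker and a female group, 5 were found (10.4%). Chance flags about 1 in 20 independent groups, but the markers of an array vary together and 3 of the 5 are of Female WT 2, so that the 2 shares cannot be compared directly. In Female WT 2 Marco read 531 with 69.9 as the next value, Csf1r read 905 with 526 next, and C1qc read 2484 with 867 next. In Female WT 4 Lyve1 read 108 with 219 as the nearest of the others. In Female KO 8 Cd163 read 186 with 358 as the nearest. The groups of 3 male livers were not examined in this way.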

How the results depend on the processing

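The number of the 24 markers called changed as follows. In KO against WT males it was 0, with 3 under array weights (Cdh5, Col3a1 and Stab2) and 0 to 1 with each array left out (Cdh5 without Male WT 1). In KO against WT females it was 0, with 1 under array weights (Sox9). Between male and female WT livers it was 1, with 6 under array weights, 2 with a replicate block (Cdh5 and Pecam1), and 0 with an offset of 50, with a trended and robust prior, without Female WT 2 and 4, and without Male KO 5 and Female WT 2. With each array left out it was 0 to 1, and Pecam1 was lost without Male WT 1 (adjusted p = 0.0736, limma, with Cdh5 called), 2 or 3, Female WT 1, 2, 3 or 4, Male KO 5 or 6, or Female KO 8. Without the detection filter the adjusted p of Pecam1 was 0.0530 and Krt7, detected on 1 array, was called instead. Between male and female KO livers it was 1, with 0 under an offset of 50, with only the groups compared in the fit, and without Male KO 5 and Female WT 2. With each array left out it was 0 to 2: Pecam1 was lost without any 1 of the 3 male KO arrays or without Female KO 6, and Cd163 was added without Female KO 8. Pecam1 kept its direction in all 27 settings of each comparison. Arrays of the same number and genotype in the 2 sexes correlated at 0.0749 to 0.261 in their deviations, with 2 of 4 pairs above 0.1, and 4 of 8 arrays correlated best with their own number. No label ties the numbers to a shared litter or day, so that the samples were not treated as paired; the correlation fitted within the replicate block was 0.295, and the block changed no other count of markers called. The cause of these changes was not tested.

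The groups of 3 male arrays limit the precision, with 95% intervals of up to 1.52 log2 units to either side for Marco in males. Values near the detection threshold (Pecam1, Des, Cd79b, Cd3e and Timp1) depend on the offset, and log2 differences of such dim probes understate the change.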
